A study of Homo sapiens with 59 samples.

Results

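Ribosome biogenesis factors are the proteins that make ribosomal RNA and assemble it into ribosomal subunits without being part of the finished ribosome. The set described here holds 47 named genes, picked by symbol, out of 19084 genes in the deposited table, and all 47 were found and passed the filter on low values that left 15305 genes for testing. They were grouped by textbook role into 9 genes of RNA polymerase I and III transcription and nucleolar organisation, 3 of the box C/D and 4 of the box H/ACA small nucleolar ribonucleoprotein cores, 11 of small subunit processing and 20 of large subunit assembly.

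Messenger RNA was sequenced in 59 libraries of neural stem cells that were made from the human embryonic stem cell line WA09, also called H9. All cells were first given FGF8b, then CHIR99021, which inhibits the kinase GSK3 and so turns on WNT signalling, for 2 to 72 h on an automated platform, and finally retinoic acid medium for 4 days before lysis. The 20 exposure times were 2 h apart up to 24 h and 6 h apart after that, with libraries labelled A1, A2 and B1 at each, and 2 libraries only at 48 h. No arm without CHIR99021 was analysed, longer exposure also meant longer culture, and the labels state neither the time of day of each medium switch or lysis nor whether replicates came from cultures of their own. The p-values therefore describe the spread among these libraries, which may be technical. The main comparison set the 9 libraries of 6, 30 and 54 h, which lie 24 h apart, against the 26 libraries of the other multiples of 6 h. These 35 libraries came from only 12 exposure times, and libraries of the same time were treated as independent. Its residual spread also holds departures of whole exposure times from a smooth curve of hours. Its p-values may thus be too small for a claim about the hours themselves.

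Values are TPM (transcripts scaled to a fixed total), a unit from which read depth cannot be recovered, so it is unknown. Between 9348 and 13085 genes per library reached 1 TPM. Fewer than 10000 were found in B1 of 4 h, B1 of 42 h and A2 of 72 h, against at least 11004 in each of the others, and counts called without these 3 are given beside the comparisons of exposure times. The neural progenitor gene PAX6 was at 166 to 259 TPM in the 12 libraries of 2 to 8 h and 85.7 to 177 TPM in the 12 of 54 to 72 h. Of 10 neural progenitor markers, 8 were called higher and 1 lower at 54 to 72 h than at 2 to 8 h. The summed TPM of 10 surface ectoderm and epithelium markers was 447 to 759 in the libraries of 54 to 72 h and 1177 to 3491 in those of 2 to 8 h. CLDN7, ESRP1 and GRHL2 of that list were at 0 in all 12 libraries of 54 to 72 h. In bulk RNA, fewer cells of a type and less RNA per cell cannot be told apart.

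In the nucleolus, RNA polymerase I transcribes a long precursor of ribosomal RNA. Box C/D and box H/ACA particles, guided by small nucleolar RNAs, methylate and pseudouridylate it, and the small subunit processome, helicases, GTPases and assembly factors cut it and fold it into the precursors of the small and large subunits. Many of these genes are known targets of MYC family transcription factors, and their demand is high in growing cells.

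The 47 genes formed a sawtooth that recurred every 24 h over the 3 days. Their mean centred level, which is the mean over the genes of log2(TPM + 1) minus the gene's own mean over all libraries, was 0.81 at 6 h, 0.099 at 12 h, −0.19 at 18 h and −0.44 at 24 h. It was 0.92 at 30 h, −0.12 at 36 h, −0.61 at 42 h and −0.48 at 48 h, and then 1.08 at 54 h, 0.16 at 60 h, −0.51 at 66 h and −0.86 at 72 h. The 9 libraries of 6, 30 and 54 h had a lowest, median and highest level of 0.76, 0.94 and 1.13, and the 26 libraries of other multiples of 6 h had −1.53, −0.33 and 0.20. The groups did not overlap. The 42 h and 72 h means include B1 at −1.04 and A2 at −1.53, both among the libraries with under 10000 genes. The other 42 h and 72 h libraries were also below 0, as the plot of levels by hour shows.

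**Figure D1:**
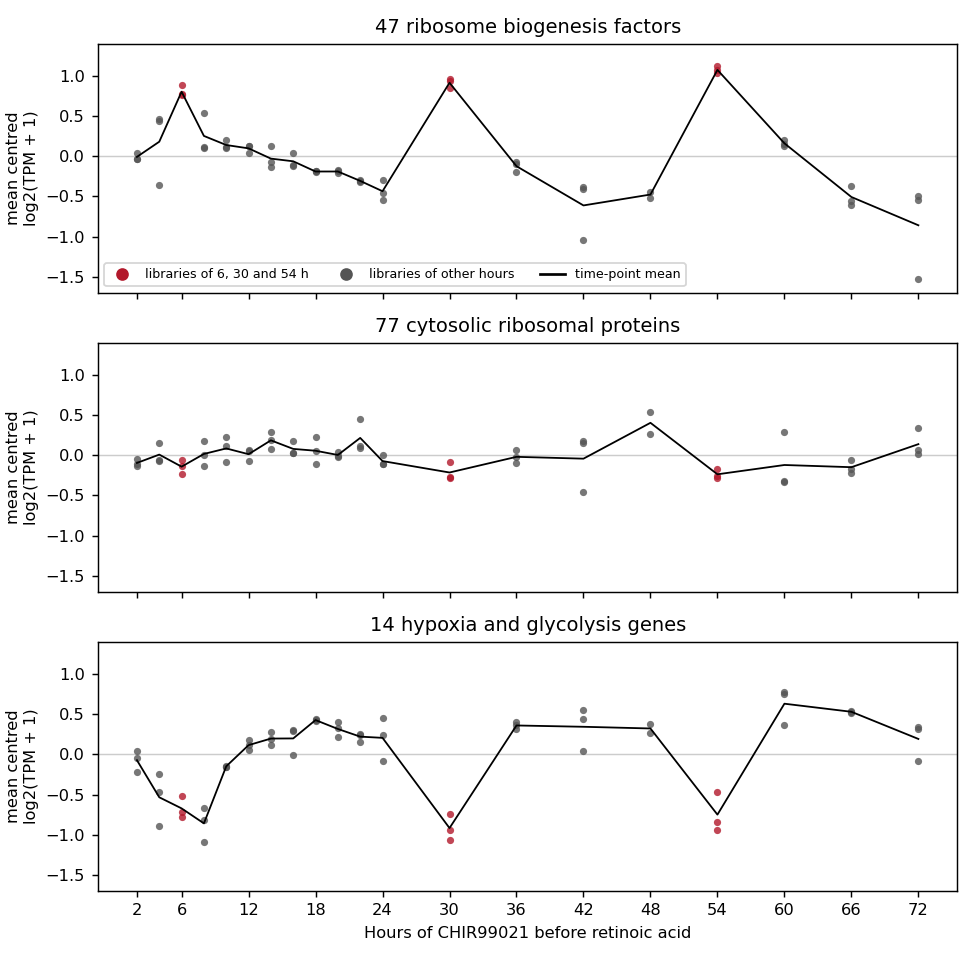
Mean centred log2(TPM + 1) of 3 gene lists in each library (points; red for 6, 30 and 54 h, grey for other hours) against hours of CHIR99021, with the time-point mean as a line (n = 3, and 2 at 48 h). The 47 ribosome biogenesis factors reach 0.81, 0.92 and 1.08 at 6, 30 and 54 h, while the 14 hypoxia and glycolysis genes are at −0.67, −0.92 and −0.75 at those hours and the time-point means of the 77 ribosomal protein genes stay within −0.24 and 0.41.

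Taken gene by gene, 6, 30 and 54 h had the highest mean of their 4 hours (6 to 24 h, 30 to 48 h and 54 to 72 h) on all 3 days in 38 of 47 genes, or 80.9%, where 11.9% of all tested genes had that pattern. In 37 of the 47, or 78.7%, the highest of all 20 time-point means fell at 6, 30 or 54 h, against 22.5% of tested genes. Means fell at every 6 h step in 26 genes over 6 to 24 h, 13 over 30 to 48 h and 21 over 54 to 72 h, where the shares of all tested genes were 10.7%, 9.89% and 9.91%. All 3 days had an unbroken fall in 6 genes, against 0.967% of tested genes. Counted by day, the first hour was the highest of its 4 in 43, 41 and 39 of the 47 genes, against 32.7%, 31.4% and 32.7% of tested genes.

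Set against the other multiples of 6 h, 33 of the 47 genes (70.2%) were higher at 6, 30 and 54 h and none was lower, whereas 8.98% of all 15305 tested genes were called higher and 5.07% lower (limma with an indicator for the 3 hours beside a smooth curve of hours, Benjamini-Hochberg adjusted p under 0.05). The median log2 difference was 1.18 over the 47 genes and 0.048 over all tested genes. Positive differences numbered 44 of the 47, and 8304 of all 15305 tested genes. Of all called genes 63.9% were higher, and 48.8% under quantile normalization and 47.8% under median-ratio scaling, where 33 and 32 of the 47 genes were higher. Adding 1 TPM before the logarithm makes differences of weakly expressed genes look smaller than they are. Without the libraries labelled A1 21 genes were called, without the 30 h libraries 19 and without the 54 h libraries 20, with none lower in any of these. Over all tested genes, higher calls fell from 1374 to 470, 529 and 378 in these settings. Without the 3 libraries with under 10000 genes 37 were called, and 2203 of all tested genes were higher. For 16 of the 47 genes, every library of 6, 30 and 54 h lay above every library of the other multiples of 6 h, which held for 0.876% of tested genes.

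**Figure D2:**
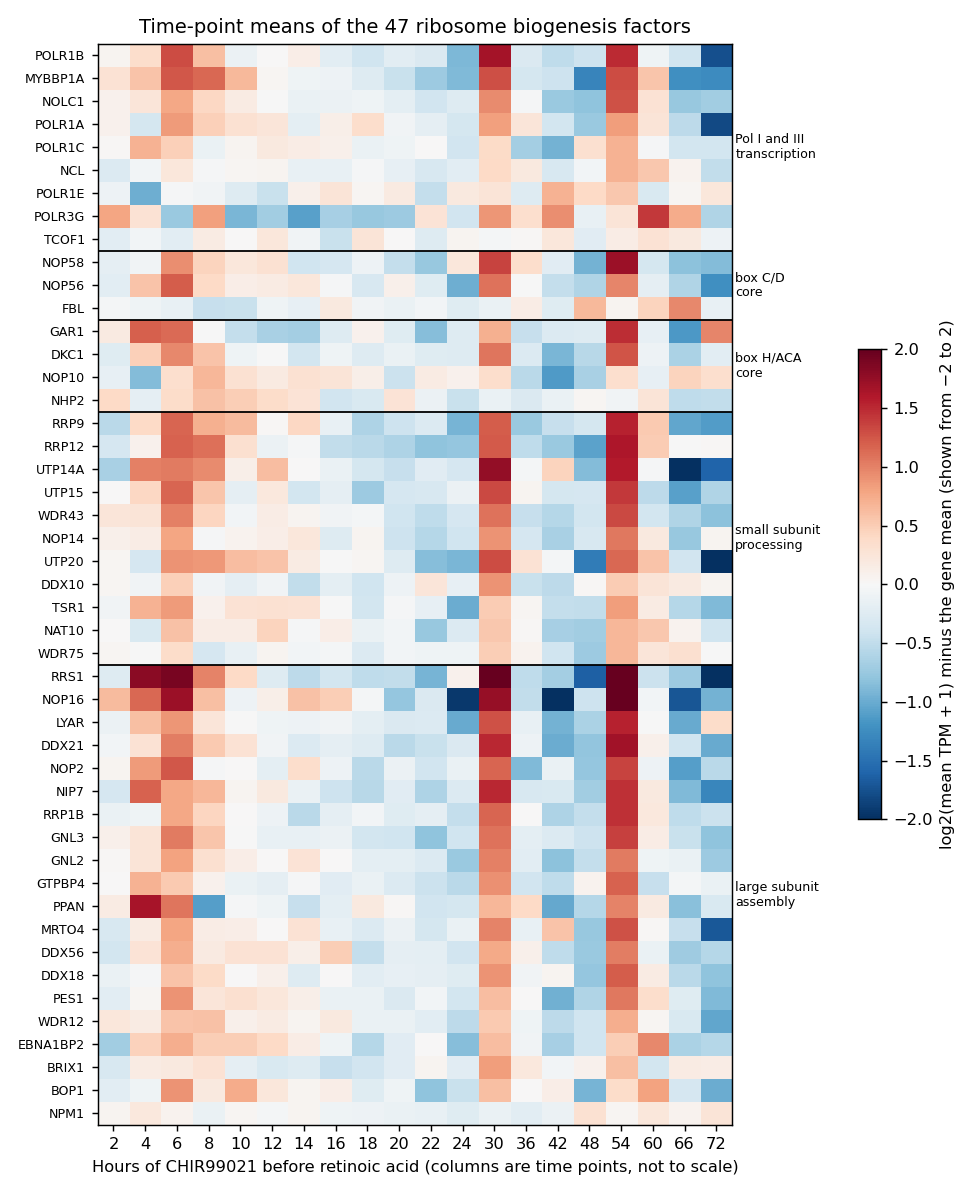
Time-point means of the 47 genes, by role, as log2(mean TPM + 1) minus the gene's mean over the 20 exposure times (colour, from −2 in blue to 2 in red) against hours of CHIR99021. Red columns stand at 6, 30 and 54 h in most rows of all 5 role groups. FBL, NHP2, POLR1E, POLR3G, TCOF1 and NPM1 do not follow them, and NOP10 has its highest mean at 8 h.

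Large subunit assembly held the 4 largest differences, with 15 of 20 genes higher and a median of 1.22. RRS1, which in yeast helps place the 5S ribonucleoprotein in the large subunit precursor, had 87.5, 95.7 and 102 TPM at 6 h, 92.6, 102 and 141 at 30 h and 91.1, 103 and 123 at 54 h. In the 26 libraries of other multiples of 6 h its lowest, median and highest values were 0, 17.0 and 32.8 TPM, so the groups were far apart. The log2 difference was 2.86 (SE 0.414, limma adjusted p = 7.7e-06). NOP16, a nucleolar protein of the large subunit precursor, had a lowest, median and highest value of 60.4, 80.9 and 103 TPM at 6, 30 and 54 h, against 0, 11.5 and 37.1 TPM at other multiples of 6 h (log2 difference 2.73, SE 0.576, adjusted p = 0.0011).

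DDX21, a nucleolar RNA helicase, had 227, 231 and 239.7 TPM at 6 h, 313, 320.3 and 337 at 30 h and 359, 362 and 382 at 54 h. Its lowest, median and highest values at other multiples of 6 h were 23.3, 90.0 and 143 TPM. No library overlapped, and the 3 libraries within each of the 3 hours lay close together (log2 difference 1.86, SE 0.189, adjusted p = 1.4e-08). LYAR, a nucleolar zinc finger protein, averaged 125 ± 28.7 TPM at 6, 30 and 54 h and 41.2 ± 22.4 TPM at other multiples of 6 h (SD, n = 9 and 26, as for all such means; log2 difference 2.04, SE 0.476, adjusted p = 0.0029). In LYAR the groups overlapped through a single library, A2 of 72 h at 115 TPM, which is among the 3 with under 10000 genes.

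The other called genes of the large subunit differed by 0.77 (BRIX1) to 1.74 (NOP2) on the log2 scale. NOP2, a methyltransferase of the large ribosomal RNA, averaged 53.1 ± 7.63 TPM at 6, 30 and 54 h and 15.8 ± 6.73 TPM at other multiples of 6 h. The GTPase GNL3, known as nucleostemin, averaged 439 ± 61.3 TPM against 158 ± 47.3 TPM. The GTPases GNL2 (1.33) and GTPBP4 (1.25) were higher too, as were NIP7 (1.61), RRP1B (1.47), MRTO4 (1.11) and the helicases DDX56 (1.08) and DDX18 (1.07). BRIX1, an assembly factor with the smallest called difference of the role, averaged 113 ± 31.4 TPM at 6, 30 and 54 h and 72.3 ± 16.0 TPM at other multiples of 6 h (SE 0.128, adjusted p = 6.7e-05).

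PES1, BOP1 and WDR12 form the PeBoW complex, needed for processing of the large subunit precursor, and only PES1 passed the test. PES1 averaged 98.1 ± 20.1 TPM at 6, 30 and 54 h and 45.7 ± 17.9 TPM at other multiples of 6 h (log2 difference 1.04, SE 0.237, adjusted p = 0.0022). BOP1 averaged 31.9 ± 6.97 and 19.1 ± 11.9 TPM at these hours (0.59, 95% interval −0.18 to 1.36, adjusted p = 0.347). WDR12 averaged 102 ± 16.8 and 54.9 ± 24.1 TPM (0.93, 95% interval −0.11 to 1.96, adjusted p = 0.253). The intervals of BOP1 and WDR12 include the estimate of PES1, and the differences between the 3 genes were not tested. PPAN (1.19, adjusted p = 0.140) and EBNA1BP2 (0.78, adjusted p = 0.073) also missed the threshold.

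NPM1, or nucleophosmin, an abundant nucleolar chaperone, did not share the pattern. It averaged 4098 ± 313 TPM at 6, 30 and 54 h and 4161 ± 776 TPM at other multiples of 6 h, with a log2 difference of −0.0061 (95% interval −0.17 to 0.16, adjusted p = 0.977). Under quantile normalization the difference of NPM1 was 0.26 with an adjusted p of 0.0094, so its direction depends on the scaling. NPM1 has many near-identical copies in the genome, among which reads are apportioned by estimation, and its level is uncertain to that extent.

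In small subunit processing 10 of 11 genes were higher, with differences of 0.68 to 1.85 and a median of 1.18. WDR43, a component of the small subunit processome, had 140 to 162 TPM at 6 h, 143 to 179 at 30 h and 181 to 189 at 54 h, against 22.8 to 87.4 TPM at other multiples of 6 h. Its log2 difference of 1.45 (SE 0.126) had the lowest adjusted p of the 47 genes, 6.1e-10. RRP9, a protein of the U3 small nucleolar particle, averaged 51.7 ± 14.2 TPM at 6, 30 and 54 h and 14.6 ± 9.72 TPM at other multiples of 6 h (1.85, SE 0.539, adjusted p = 0.017), with overlap through B1 of 60 h.

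RRP12, known in yeast for its part in export of the subunits, averaged 37.0 ± 9.27 TPM against 11.4 ± 5.41 TPM (1.81, SE 0.236, adjusted p = 1.3e-06) and had no overlap. Among the others were UTP14A (1.70), UTP15 (1.60), NOP14 (1.18) and UTP20 (1.10). The smallest called differences of the role were in 3 genes. The helicase DDX10 averaged 53.2 ± 13.4 TPM at 6, 30 and 54 h and 31.4 ± 10.6 TPM at other multiples of 6 h (1.02, SE 0.306, adjusted p = 0.022). TSR1 averaged 71.0 ± 9.89 and 34.3 ± 12.7 TPM (0.84, SE 0.191, adjusted p = 0.0022), and WDR75 103 ± 19.4 and 70.5 ± 21.9 TPM (0.68, SE 0.211, adjusted p = 0.025). The exception was NAT10, an acetyltransferase of the small ribosomal RNA, at 57.5 ± 7.82 TPM and 36.6 ± 14.2 TPM (0.81, 95% interval 0.11 to 1.51, adjusted p = 0.117).

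**Figure D3:**
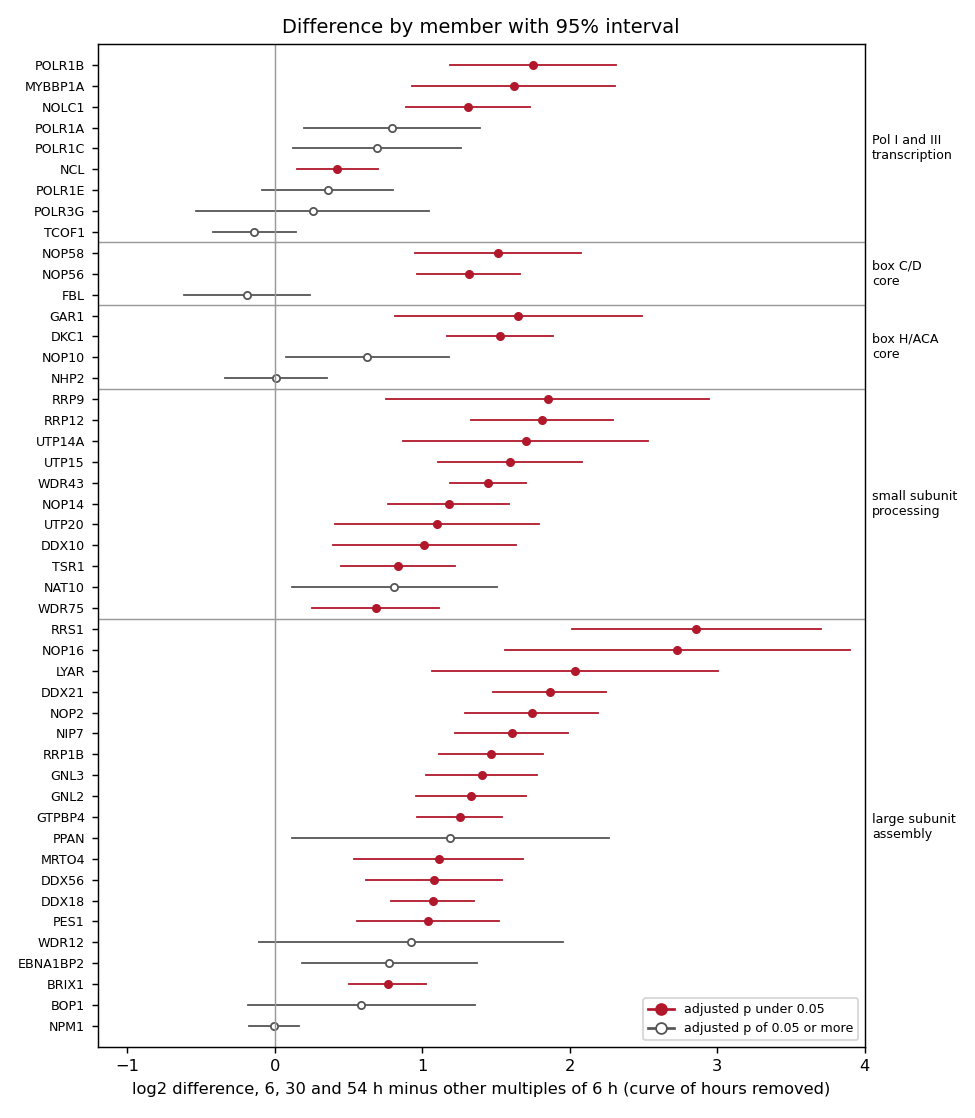
Log2 difference of each of the 47 genes between 6, 30 and 54 h and the other multiples of 6 h (points) with its 95% interval (lines), grouped by role; filled red points passed an adjusted p of 0.05. RRS1 stands at 2.86 and FBL at −0.18, and 44 of the 47 points lie above 0.

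Within the small nucleolar particles, only some of the partners passed the test. In the box C/D core, NOP56 had 250.02, 253 and 261 TPM at 6 h, 196, 231 and 274 at 30 h and 208, 211 and 225 at 54 h, against 38.6, 80.8 and 143 TPM as the lowest, median and highest values at other multiples of 6 h. NOP58, its paralog in the particle, had 82.1, 122 and 189.7 TPM, against 2.40, 41.0 and 71.8 TPM. Neither gene had overlapping groups, and the log2 differences were 1.32 for NOP56 (SE 0.171, adjusted p = 1.2e-06) and 1.51 for NOP58 (SE 0.277, adjusted p = 2.1e-04).

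FBL, or fibrillarin, the methyltransferase of the same particle, had 100.0, 123 and 148 TPM as its lowest, median and highest values at 6, 30 and 54 h, against 54.8, 136 and 276 TPM at other multiples of 6 h. The groups overlapped over their whole width (log2 difference −0.18, 95% interval −0.61 to 0.24, adjusted p = 0.645), and without the 54 h libraries the difference was 0.12. The highest mean of FBL was 250.1 ± 43.6 TPM at 66 h. The ratio of NOP56 to FBL in a library had a median of 1.85 (1.42 to 2.50) at 6, 30 and 54 h and of 0.624 (0.192 to 1.69) at other multiples of 6 h.

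In the box H/ACA core, DKC1, or dyskerin, the pseudouridine synthase, had 147, 163 and 177 TPM at 6 h, 149, 171 and 205 at 30 h and 186, 199 and 213 at 54 h, against 22.7, 64.8 and 107.3 TPM at other multiples of 6 h. No library overlapped (log2 difference 1.53, SE 0.178, adjusted p = 1.8e-07). GAR1 had 28.9, 60.5 and 93.4 TPM at 6, 30 and 54 h, against 1.65, 25.0 and 93.6 TPM at other multiples of 6 h (1.65, SE 0.411, adjusted p = 0.0050), so its groups overlapped.

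The other members of that core, NHP2 and NOP10, did not pass. NHP2 had 88.9, 124 and 160.0 TPM as its lowest, median and highest values, against 55.0, 101 and 184 TPM at other multiples of 6 h, with a log2 difference of 0.0089 (95% interval −0.34 to 0.36, adjusted p = 0.985) that was −0.11 under quantile normalization. NOP10 had 22.2, 82.5 and 118 TPM, against 8.66, 57.5 and 127 TPM (0.63, 95% interval 0.076 to 1.18, adjusted p = 0.128). The ratio of DKC1 to NHP2 had a median of 1.50 (0.983 to 2.31) at 6, 30 and 54 h and of 0.605 (0.155 to 1.85) at other multiples of 6 h, with some overlap.

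**Figure D4:**
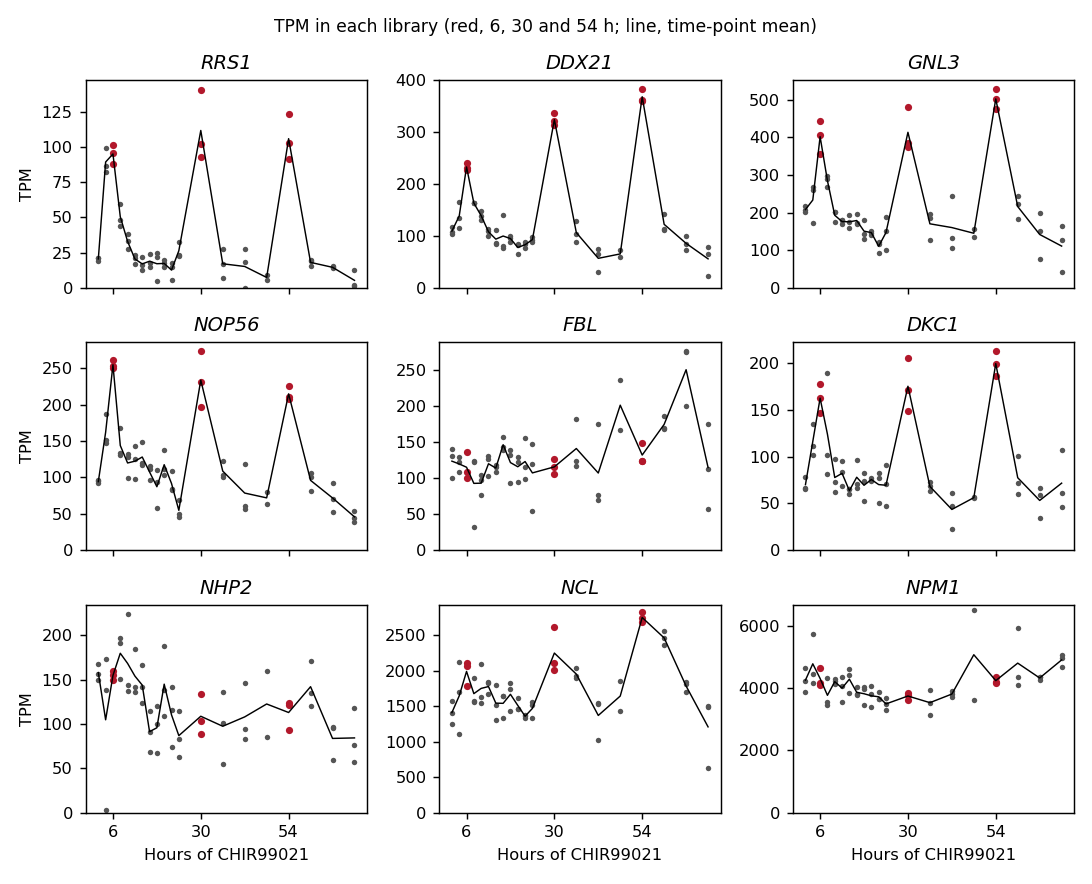
TPM of 9 of the genes in each library (points; red for 6, 30 and 54 h) against hours of CHIR99021, with the time-point mean as a line and each vertical axis starting at 0. RRS1, DDX21, GNL3, NOP56 and DKC1 spike at 6, 30 and 54 h, NCL follows with smaller peaks, and FBL, NHP2 and NPM1 show no such peaks.

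Of the 9 genes of polymerase I and III transcription and nucleolar organisation, 4 were higher. POLR1B, the second largest subunit of RNA polymerase I, had 35.1, 54.0 and 80.5 TPM as its lowest, median and highest values at 6, 30 and 54 h, against 0, 13.4 and 22.3 TPM at other multiples of 6 h, with no overlap (log2 difference 1.75, SE 0.277, adjusted p = 3.0e-05). MYBBP1A, a nucleolar regulator of transcription, averaged 42.7 ± 7.16 TPM against 12.5 ± 7.78 TPM (1.62), and the nucleolar chaperone NOLC1 196 ± 41.2 TPM against 79.6 ± 26.1 TPM (1.31).

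NCL, or nucleolin, the second most abundant gene of the set, averaged 2326 ± 384 TPM at 6, 30 and 54 h and 1704 ± 405 TPM at other multiples of 6 h (0.43, SE 0.134, adjusted p = 0.028), a smaller difference on a high level. The largest polymerase I subunit POLR1A (0.80, adjusted p = 0.066), POLR1C, which is shared with polymerase III (0.69, 95% interval 0.12 to 1.27), and POLR1E (0.36, adjusted p = 0.310) did not pass. TCOF1, or treacle, a nucleolar scaffold, was at 32.5 ± 5.98 and 36.3 ± 7.64 TPM, with a difference of −0.14 (95% interval −0.42 to 0.14). POLR3G, a polymerase III subunit, was near 4 TPM in both groups, at 4.11 ± 2.84 and 4.24 ± 4.51 TPM.

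Promoter sequences were examined for the E-box CACGTG, the sequence that MYC and MAX are known to bind and one that reads the same on both strands. RefSeq windows on GRCh38.p14, from 250 bases before to 50 bases after an annotated start, were at hand for 37 of the 47 genes. At least 1 window held CACGTG in 18 of these 37 genes (48.6%), against 12.2% of the 11105 tested genes with a window, 30.6% of 111 other ribosome biogenesis genes and 6.56% of 61 ribosomal protein genes. Of all 35116 RefSeq windows, 7.26% held it. The word was present in 14 of 27 genes called higher at 6, 30 and 54 h (51.9%) and in 4 of 10 genes not called (40.0%), a difference that was not tested. The windows below are shown because DDX21, RRP9, NOP2 and WDR43 hold the word and were higher, FBL holds it and was not called, and NOP56 was higher with no such word in its window; capitals mark CACGTG, 5′ to 3′ on the gene's strand. DDX21 (chr10:68956397-68956696, plus strand) has a second window without it, RRP9 is at chr3:51941855-51942154 (minus), NOP2 at chr12:6568242-6568541 (minus), WDR43 at chr2:28894417-28894716 (plus), FBL at chr19:39846330-39846629 (minus) and NOP56 at chr20:2652382-2652681 (plus).
DDX21: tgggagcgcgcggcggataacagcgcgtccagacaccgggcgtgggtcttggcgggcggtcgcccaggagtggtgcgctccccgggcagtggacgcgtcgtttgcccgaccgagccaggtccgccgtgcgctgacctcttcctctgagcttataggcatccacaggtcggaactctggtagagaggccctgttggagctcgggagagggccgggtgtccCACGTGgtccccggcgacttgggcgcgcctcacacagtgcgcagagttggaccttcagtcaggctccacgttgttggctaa
RRP9: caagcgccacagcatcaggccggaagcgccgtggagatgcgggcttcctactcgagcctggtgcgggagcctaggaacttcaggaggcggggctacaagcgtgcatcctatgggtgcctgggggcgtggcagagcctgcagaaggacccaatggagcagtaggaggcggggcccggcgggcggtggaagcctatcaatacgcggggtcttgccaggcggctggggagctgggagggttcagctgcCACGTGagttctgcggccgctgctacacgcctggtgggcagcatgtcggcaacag
NOP2: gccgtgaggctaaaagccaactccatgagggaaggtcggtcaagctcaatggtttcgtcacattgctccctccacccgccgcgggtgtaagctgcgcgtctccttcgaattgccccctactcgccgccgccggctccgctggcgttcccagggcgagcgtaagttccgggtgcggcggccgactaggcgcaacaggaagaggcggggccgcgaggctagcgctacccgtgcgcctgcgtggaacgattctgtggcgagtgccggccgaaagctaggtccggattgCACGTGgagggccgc
WDR43: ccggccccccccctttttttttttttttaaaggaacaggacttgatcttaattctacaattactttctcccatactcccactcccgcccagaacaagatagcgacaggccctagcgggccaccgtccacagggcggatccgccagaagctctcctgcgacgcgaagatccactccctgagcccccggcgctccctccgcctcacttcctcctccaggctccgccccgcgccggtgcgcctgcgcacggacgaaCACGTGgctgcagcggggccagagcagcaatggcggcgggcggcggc
FBL: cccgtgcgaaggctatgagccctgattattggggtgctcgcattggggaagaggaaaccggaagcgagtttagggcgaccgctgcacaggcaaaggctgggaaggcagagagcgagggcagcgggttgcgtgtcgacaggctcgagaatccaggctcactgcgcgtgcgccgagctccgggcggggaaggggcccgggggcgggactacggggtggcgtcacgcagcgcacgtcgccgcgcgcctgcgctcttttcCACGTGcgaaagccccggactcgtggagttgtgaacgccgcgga
NOP56: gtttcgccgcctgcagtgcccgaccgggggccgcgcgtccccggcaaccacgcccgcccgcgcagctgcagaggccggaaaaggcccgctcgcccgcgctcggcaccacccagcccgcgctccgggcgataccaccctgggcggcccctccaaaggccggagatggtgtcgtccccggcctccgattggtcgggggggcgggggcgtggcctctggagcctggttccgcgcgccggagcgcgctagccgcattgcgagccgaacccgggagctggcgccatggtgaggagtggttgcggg

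The word began at position −31 relative to the annotated start in DDX21, −5 in RRP9, 36 in NOP2, 4 in WDR43 and 7 in FBL. Such a match is a description of letters in a window, and these data hold no binding measurement. Among the MYC factors themselves, MYCN had 52.3, 89.7 and 122 TPM as its lowest, median and highest values at 6, 30 and 54 h, against 0, 39.4 and 76.6 TPM at other multiples of 6 h (log2 difference 1.70, SE 0.425, adjusted p = 0.0052). MYCN had no peak at 6 h, with means of 65.8 ± 4.17 TPM at 2 h, 150 ± 65.3 at 4 h and 60.7 ± 13.4 at 6 h. Its means were 93.2 ± 25.0 TPM at 30 h, 117 ± 7.31 at 54 h and 61.6 ± 13.4 at 72 h. The partner MAX averaged 73.5 ± 10.4 TPM and 30.6 ± 11.2 TPM (1.17, adjusted p = 0.030), with no overlap. MYC had 17.8, 30.6 and 77.2 TPM, against 20.5, 37.1 and 70.0 TPM (−0.34, adjusted p = 0.303). Of 4 listed MYC factors, none was called at 30 h against 24 and 36 h or at 54 h against 48 and 60 h. None was called at 6 h against 12 h either.

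Other genes of the pathway, from a list of 122 measured genes outside the 47, moved the same way at 6, 30 and 54 h, with 68 higher, none lower and a median of 0.84. Higher genes numbered 32 of 47 in small subunit processing, 24 of 48 in large subunit assembly, 9 of 18 in polymerase I and III transcription and 3 of 9 in small nucleolar particle assembly. PNO1, a small subunit assembly factor, averaged 95.03 ± 14.0 TPM at 6, 30 and 54 h and 22.6 ± 13.9 TPM at other multiples of 6 h (2.58). PAK1IP1 (2.32), CCDC86 (2.31), DHX37 (2.15) and UBTF, a polymerase I transcription factor (1.38, 117 ± 24.1 TPM against 39.7 ± 18.0 TPM), were higher as well.

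The 77 cytosolic ribosomal protein genes, which encode the finished ribosome's proteins, did not: none was higher, 9 were lower and the median was −0.27. Under quantile normalization 2 were lower with a median of −0.069, and under median-ratio scaling 18 with a median of −0.37. RPL17, for instance, averaged 1430 ± 201 TPM at 6, 30 and 54 h and 1848 ± 320 TPM at other multiples of 6 h (−0.37, adjusted p = 0.0090). Their mean centred level was −0.29 to −0.058 in the 9 libraries of 6, 30 and 54 h and −0.45 to 0.54 in the other 26, so the groups overlapped. In none of the 77 genes were 6, 30 and 54 h the highest of their 4 hours on all 3 days.

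Hypoxia and glycolysis genes moved the opposite way at the same hours. Of 14 such genes 11 were lower and none higher, with a median of −0.93, and BNIP3, a mitophagy gene induced by low oxygen, had 48.3, 64.9 and 81.4 TPM as its lowest, median and highest values at 6, 30 and 54 h, against 126, 383 and 561 TPM at other multiples of 6 h (−2.68, adjusted p = 2.8e-14). Their summed TPM was 2624 to 3209 and 4164 to 6865, with no overlap. Of 20 cell cycle genes 6 were lower and none higher (median −0.19), with sums of 2021 to 3415 and 2537 to 4692 TPM. Epithelium markers summed to 257 to 1416 and 347 to 1168 TPM, and neuron markers to 292 to 454 and 265 to 580 TPM, so both overlapped, and 1 of 10 genes of each list was lower. Of 10 neural progenitor markers 1 was higher and 3 lower, with SOX2 at 58.4 ± 24.4 TPM at 6, 30 and 54 h and 124 ± 48.0 TPM at other multiples of 6 h. The part of any of these lists in the ribosome biogenesis result was not tested.

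Each day's peak was then compared with its own neighbours, in a fit of the 20 time-point means. At 30 h, 24 of the 47 genes were higher than at 24 and 36 h and none lower, with a median of 1.15, where 2.55% of tested genes were called higher and 1.95% lower. At 54 h, 25 were higher than at 48 and 60 h and none lower, with a median of 1.41, where 6.54% and 1.81% of tested genes were called. Among the called genes, those with the largest differences at 30 h were NOP16 (3.14), RRS1 (2.43), POLR1B (2.23), LYAR (2.03) and MYBBP1A (1.96), while RRP9 was at 2.04 without being called (adjusted p = 0.113). POLR1B averaged 61.0 ± 17.1 TPM at 30 h and 12.2 ± 3.27 TPM at 24 and 36 h. Those at 54 h were RRS1 (3.09), NOP58 (2.35), UTP14A (2.08), DDX21 (2.04) and RRP12 (1.97), while NOP16 was at 2.34 without being called (adjusted p = 0.146). NOP58 averaged 162 ± 27.6 TPM at 54 h and 32.9 ± 9.03 TPM at 48 and 60 h. Without the 3 libraries with under 10000 genes, 36 were called at 30 h and 33 at 54 h. Higher calls over all tested genes rose from 390 to 977 and from 1001 to 1948. None of these libraries is of the hours compared, and the medians stayed at 1.15 and 1.41. Without the libraries labelled A1, 15 genes were called at 30 h and 14 at 54 h, and without those labelled A2 14 at 30 h. All tested genes then had 105, 158 and 144 higher calls. The rise at 54 h minus the rise at 30 h was called in none of the 47 genes by limma (lowest adjusted p = 0.854; 1 gene at an unadjusted p under 0.05), where 0.0392% of tested genes were called, so this contrast says little about the 47.

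The first peak could be followed at 2 h steps. RRS1 averaged 20.5 ± 1.10 TPM at 2 h, 89.2 ± 8.80 at 4 h and 94.9 ± 7.10 at 6 h. It then averaged 50.4 ± 7.93 TPM at 8 h, 32.9 ± 5.41 at 10 h and 20.5 ± 3.02 at 12 h (SD, n = 3). It was thus already high at 4 h and back at its 2 h level by 12 h. NOP56 averaged 94.3 ± 2.31, 162 ± 21.5, 254.6 ± 5.67, 144 ± 20.9, 119.9 ± 18.5 and 122 ± 22.7 TPM at the same 6 times. Among these 6 times NIP7, a large subunit assembly factor, was highest at 4 h, at 153 ± 51.0 TPM, against 52.8 ± 4.13 TPM at 2 h. The 4 h mean includes B1, which had under 10000 genes, and the highest of all 20 NIP7 means was at 30 h.

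Set together, 4, 6 and 8 h were higher than 2, 10 and 12 h in 9 of the 47 genes and lower in none, with a median of 0.35, where 0.804% of tested genes were called higher and 2.29% lower. The called genes were RRS1 (1.61), NIP7 (0.89), RRP12 (0.82), DKC1 (0.77), NOP56 (0.70), GNL3 (0.63), DDX21 (0.55), GTPBP4 (0.51) and BRIX1 (0.49). Without the libraries with under 10000 genes, of which 4 h B1 is one, 18 were called, and without the libraries labelled A1, or those labelled A2, 2 each time. Higher calls over all tested genes went from 123 to 279, 24 and 25 in these settings. For 6 h against 12 h, NOP2 (1.46), GNL3 (1.18), DDX21 (1.10) and NOP56 (1.07) were higher and none lower, where 0.699% of tested genes were called higher and 0.954% lower. The 4 calls became 0 without the libraries labelled A1, and likewise without those labelled A2, and 12 without those with under 10000 genes. Among all tested genes, higher calls fell to 14 and 21 and rose to 283 in these settings. Positive differences in the main fit numbered 44 of the 47, and 7882 of all 15305 tested genes.

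Across the whole range of exposure, 21 of the 47 genes (44.7%) changed along a smooth curve of hours, against 36.8% of all tested genes (limma, a joint F-test of the curve). The shares were not far apart, so the curve says little about the 47 in particular. The count was 13 with the A1 libraries left out, 10 with the A2 libraries left out and 19 without the 3 libraries with under 10000 genes. Shares of all tested genes in these settings are not given here, so the smaller counts are no result about the 47 in particular. The early window of 2 to 8 h was used to describe how the later windows differed from it, with 12 libraries in each. At 18 to 24 h, 23 of the 47 genes were lower than at 2 to 8 h and none higher, with a median of −0.61, where 9.45% of tested genes were called lower and 10.5% higher. RRS1 averaged 18.3 ± 7.82 TPM in the window of 18 to 24 h and 63.8 ± 32.2 TPM in the early one (−1.67, adjusted p = 7.8e-05). Among the called genes MYBBP1A followed (−1.40), then RRP12 (−1.19), POLR1B (−1.02) and GNL3 (−0.99).

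Those falls depended on which hours were in the fit. Without the libraries of 4, 6, 8, 30 and 54 h, which leaves 2 h alone in the early window, 0 genes were called lower at 18 to 24 h, with a median of −0.23. Without the 3 libraries with under 10000 genes 35 were called lower. Lower calls over all tested genes went from 1447 to 746 and 2228 in these 2 settings.

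At 54 to 72 h, 16 genes were lower than at 2 to 8 h and FBL was higher, with a median of −0.35, where 15.8% of tested genes were called lower and 14.3% higher. Among the called genes the largest falls were in UTP14A (−1.51), RRS1 (−1.51), MYBBP1A (−1.17), POLR1B (−0.91) and NOP56 (−0.76). FBL averaged 168 ± 63.3 TPM in the late window and 113 ± 28.5 TPM in the early one (0.54, SE 0.172, adjusted p = 0.014), and was not called without the libraries labelled A1 or B1. RRS1 averaged 35.9 ± 43.1 TPM late and 63.8 ± 32.2 TPM early, and these SDs include the peaks of 54 h and of 4 and 6 h. Without the libraries labelled A1 8 genes were lower, and without the 3 libraries with under 10000 genes 24. Without the 6, 30 and 54 h libraries 21 were lower, with a median of −0.55. Without those of 4, 6, 8, 30 and 54 h, which leaves 2 h alone in the early window, 2 were called lower but the median was −0.42. Lower calls over all tested genes, 2417 in the main fit, were 1364, 2908, 2326 and 1535 in these settings.

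The last of the 3 peak hours was also compared with the first. At 54 h minus 6 h, 1 of the 47 genes (2.13%) was higher, none was lower and the median was 0.29, where 3.47% of tested genes were called higher and 3.48% lower. The share called higher was thus not above that of all tested genes. The gene was DDX18, a nucleolar helicase, at 228 ± 15.9 TPM at 54 h and 145 ± 1.61 TPM at 6 h (0.65, SE 0.174, adjusted p = 0.012), which was not called without the libraries labelled A1 or A2. Without the libraries with under 10000 genes 7 genes were higher, while higher calls over all tested genes rose from 531 to 990. Of the 47 differences 39 were positive, against 7910 of all 15305 tested genes. The 47 genes vary together, so these signs are not separate observations. Over the same step, 8 of 10 epithelium markers were lower and 7 of 10 neuron markers higher.

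The window of 54 to 72 h was also compared with that of 18 to 24 h. Higher genes numbered 7 and lower ones 0, with a median of 0.22, where 5.43% of tested genes were called higher and 7.08% lower. RRP12 averaged 23.2 ± 14.0 TPM in the later window and 8.30 ± 2.61 TPM in the earlier one (1.22, SE 0.210, adjusted p = 2.3e-05). GNL3 (0.50), GTPBP4 (0.46), RRP1B (0.44), DDX21 (0.43), NCL (0.36) and NPM1 (0.30) made up the rest. Without the 6, 30 and 54 h libraries 2 genes were higher and 2 lower, with DDX21 at −0.11. Without the 3 libraries with under 10000 genes 19 were higher, and without those labelled A1 3. Higher calls over all tested genes, 831 in the main fit, were 712, 1484 and 409 in these settings.

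Levels of the set differed widely in abundance. NPM1 averaged 4118 TPM over all 59 libraries and ranked 18 of 19084 genes, NCL averaged 1737 TPM and ranked 68, and POLR3G, the lowest, averaged 3.84 TPM. At least 100 TPM on average was reached by 9 of the 47 genes, and 4 were under 20 TPM. The 47 genes summed to 10442 ± 214 TPM at 6 h, 10573 ± 243 at 30 h and 12108 ± 28.8 at 54 h, against 6794 ± 78.4 TPM at 24 h, 8550 ± 2393 at 48 h and 7793 ± 672 at 72 h (SD, n = 3, and 2 at 48 h). At 60 h the sum was 9890 ± 954 TPM. By library the sums overlapped, with a lowest of 10194 TPM at 6, 30 and 54 h and a highest of 10986 TPM at other multiples of 6 h. The sum is carried largely by NPM1 and NCL. Of the 47 genes 15 were listed at 0 in at least 1 library, 26 times in all, 17 of them in the 3 libraries with under 10000 genes and 0 at 6, 30 or 54 h.

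As a description of how alike the genes were, each was correlated with the mean centred level of the other 46 across the 59 libraries, which share exposure times and library quality. The median Pearson r was 0.707, and 35 genes were above 0.5. NOLC1 was at 0.938, DDX21 at 0.936, WDR43 at 0.883 and POLR1B at 0.864. Below 0.3 stood 7 genes, namely NHP2 (0.252), NOP10 (0.179), POLR3G (0.063), FBL (0.010), NPM1 (0.0072), POLR1E (−0.016) and TCOF1 (−0.019). Each of these 7 was also among the 14 genes not called at 6, 30 and 54 h. The mean of the other genes itself peaks at those hours, so a gene without the peak tends to correlate weakly. This match is therefore not separate evidence.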

How the data were processed

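RNA was sequenced after oligo-dT selection, ligation of adapters and PCR, per the labels' protocols. The authors deposited TPM per gene symbol, made with CASAVA 1.8.2, Bowtie 0.12.8 and RSEM 1.2.3 on hg19, per the submitters' processing notes, with a gene annotation not given in the sources used here. RSEM estimates how reads divide among near-identical copies and overlapping genes, so their TPM are uncertain. TPM keep no depth, so no counting interval was computed, and the number of libraries limits precision.

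Values were analysed as log2(TPM + 1) for genes at 1 TPM or more in at least 3 of 59 libraries, in R 4.3.3 with limma 3.58.1, with two-sided tests, a trend of variance with level, Benjamini-Hochberg adjustment over all 15305 genes and a threshold of 0.05. The comparison of 6, 30 and 54 h used an indicator beside a natural spline of hours with 4 df over 35 libraries at 12 exposure times. The course was an F-test on such a spline over all 59 libraries, and the other comparisons were contrasts of 20 time-point means with 39 residual df. Both spline fits treated libraries of the same exposure time as independent, so misfit of whole times enters their residual spread. Means and SDs are over libraries of a group. The code was tested on simulated data.

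The 47 genes, the lists and the hours compared were chosen with earlier results of these data known. All 47 genes could be named. The rule gave full values to the 5 highest and 5 lowest called differences with a mean of at least 5 TPM on 1 side, and levels to the box C/D, box H/ACA and PeBoW genes; some of these appear as log2 differences only in comparisons other than the main one. Outside the 47 it named MYC, MYCN and up to 3 genes per list with the largest called differences, and any showing one that did not pass. PAX6, CLDN7, ESRP1 and GRHL2 were named after their values were seen. Replicate labels did not pair libraries, as described in the closing section. Alternatives varied the pseudocount, filter, scaling, replicate block and curve, and left out labels, libraries and hours. Promoters are RefSeq windows of 300 bases; Python 3.11.15 with matplotlib 3.10.9 made the plots.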

Additional observations from a re-analysis of the deposited data

How the results depend on the processing

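For 6, 30 and 54 h, 17 of the 33 higher genes stayed called under all 16 alternatives and 16 lost the call under at least 1. No alternative called any of the 47 genes lower there. The count of higher genes was 21 to 31 without 1 replicate label, 19 without the 30 h libraries and 20 without the 54 h libraries. Higher calls over all tested genes were 470 to 1029, 529 and 378 in these settings, against 1374 in the main one. NPM1 was at 0.26 under quantile normalization, 0.010 without 6 h, 0.051 without 54 h and 0.045 without A1 of 48 h, an alternative chosen after seeing the data. NHP2 was at −0.11 under quantile normalization, −0.092 under median-ratio scaling and −0.32 without 30 h, POLR3G at −0.71 without 30 h and FBL at 0.12 without 54 h. Without 1 replicate label NPM1 ranged from −0.063 to 0.093, NHP2 from −0.037 to 0.044 and TCOF1 from −0.28 to 0.027.

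Without 1 replicate label the counts of the 47 genes were 10 to 16 for the course, where those of all tested genes are not given here. They were 0 to 2 higher and 8 to 18 lower for 54 to 72 h against 2 to 8 h. Over all tested genes this comparison had 1611 to 1766 higher and 1364 to 2481 lower. For 54 to 72 h against 18 to 24 h, 3 to 6 of the 47 genes were higher, and 409 to 602 of all tested genes. At 30 h the counts of the 47 genes were 14 to 21 and at 54 h 14 to 26. All tested genes then had 105 to 263 higher calls at 30 h and 158 to 907 at 54 h, against 390 and 1001 in the main fit. The contrast of 6 h with 12 h gave 0 to 4, that of 4, 6 and 8 h gave 2 to 7, and 54 h minus 6 h gave 0 to 1. Among all tested genes these 3 contrasts had 14 to 62, 24 to 71 and 164 to 415 higher calls. Quantile normalization gave 2 higher for 54 to 72 h against 2 to 8 h, 7 when 6 h was set against 12 h, and 2 for 54 h minus 6 h, where median-ratio scaling gave 0. Without the 3 libraries with under 10000 genes these comparisons had 3, 12 and 7 higher, 18 to 24 h against 2 to 8 h had 35 lower, 54 to 72 h against 18 to 24 h had 19 higher, and 4, 6 and 8 h had 18 higher. Calls over all tested genes rose in each of these as well.

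Without the 6, 30 and 54 h libraries, 54 to 72 h against 18 to 24 h had 2 higher and 2 lower, with DDX21 at −0.11. In that setting 54 to 72 h against 2 to 8 h had 1 higher and 21 lower, with a median of −0.55. Without the 4, 6, 8, 30 and 54 h libraries, 54 to 72 h against 2 to 8 h had 0 higher and 2 lower with a median of −0.42, against −0.35 as reported, and 18 to 24 h against 2 to 8 h had 0 lower, with UTP14A at 0.32 and EBNA1BP2 at 0.27. Fewer libraries enter these fits, and the cause of the other changes was not tested.

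Replicate labels did not pair the libraries: deviations from the time-point means correlated at 0.0066 on average between libraries with the same label. With a replicate block, 33 of the 47 genes were higher at 6, 30 and 54 h, the same 33, and the course had 19. TPM keep no depth, so what depth limits cannot be given.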
